A study of Mus musculus with 20 samples.

Results

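Neuropeptides are cut from larger precursor proteins, and 10 genes for such precursors were followed here: Npy, Cck, Sst, Tac1, Penk, Nts, Adcyap1, Gal, Vip and Crh. They were taken as a named list, matched by symbol, from the 55487 genes of the count table, and all 10 were found. The list was chosen by gene function with earlier results of these data in view, in which the read counts of Npy and Cck differed between the genotypes in somata. The members' values in that comparison, and in the difference of genotype effects built on it, are therefore given as a description, without a test.

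The study sequenced RNA of a class of mouse cortical neurons on postnatal day 1, the subcerebral projection neurons of layer V that send axons to the brainstem and spinal cord. Somata came from the cortex and growth cones, the motile tips of growing axons, from the brainstem and spinal cord. Each compartment was taken from wild-type (WT) mice and from mice labelled as knockouts (KO) of Bcl11b, which encodes the transcription factor CTIP2, a regulator of these neurons. This gave 4 groups of 5 libraries, 20 in all, prepared with SMART-seq v4 after amplification from small RNA inputs. The allele, any driver line, how the neurons were marked and the number of animals behind a library are not given in the sources used here. Since nothing states that libraries of a group came from separate animals, p-values measure the spread between these libraries, which may be technical. Libraries are named below by the experiment number in their labels, which run from 7 to 11 for growth cones of both genotypes, are 12, 14, 22, 25 and 26 for WT somata, and 14, 15, 22, 25 and 26 for KO-labelled somata. Tissue and experiment number thus differ throughout with the compartment, and RNA inputs were smaller for some growth cones. A difference between growth cones and somata cannot be told apart from these.

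Library totals were 18962308 to 36059112 counts in WT somata, 35243688 to 51205154 in KO-labelled somata, 26382991 to 29323028 in growth cones of WT and 21657575 to 27723067 in KO-labelled growth cones. Levels are given as CPM, a gene's counts scaled to a common library total. Counts on Bcl11b went against the soma labels: the gene stood at 655 ± 122 CPM (SD, n = 5) in WT somata and 1082 ± 53.6 CPM (SD, n = 5) in KO-labelled somata. In growth cones it stood at 108 ± 20.1 CPM (SD, n = 5) in WT and 108 ± 35.3 CPM (SD, n = 5) in KO-labelled libraries. A whole-gene count includes transcripts that lack a deleted exon, so this count does not test a deletion, and "KO-labelled" is used throughout. A list of 14 subcerebral neuron markers summed to 1980 to 2320 CPM in WT somata and 2131 to 2235 CPM in KO-labelled somata, against 1002 to 1200 CPM and 868 to 1286 CPM in WT and KO-labelled growth cones. The like soma sums hold opposite moves, since 3 of the 14 were called higher and 2 lower in KO-labelled somata. Over all genes, 62 of 14911 were called higher there and 47 lower.

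Neuropeptides are made in the cell body, sorted into dense-core vesicles, cut out of the precursor by prohormone convertases and carried along the axon, where they are released and act on G protein-coupled receptors. In the cortex, NPY, somatostatin, vasoactive intestinal peptide (VIP) and cholecystokinin (CCK) are best known from inhibitory interneurons, although Cck and Adcyap1 are also transcribed in excitatory pyramidal neurons. In the brainstem and spinal cord many local neurons express precursors such as Penk, Tac1, Nts and Gal. In bulk samples of this kind, fewer cells of a type and less RNA per cell cannot be told apart.

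Promoter sequence is shown for Npy, Cck and Nts, the members with the largest differences between soma genotypes, so that their start regions can be compared, and for Sst because of a well-known element. The sequences are from RefSeq (GRCm38.p6), which held windows for 8 of the 10 genes and 9 windows in all, Adcyap1 having 2. Each is written 5′ to 3′ on the gene's own strand, from before the RefSeq start of the gene, and capitals mark the motif matches named after it. Npy lies at chr6:49822460-49822709 on the plus strand and is shown from 250 bases before the RefSeq start to 1 before it, with a GC box (GGGCGG) in capitals. Cck lies at chr9:121495695-121495944 on the minus strand over the same span, with an E-box (CACGTG) and a cAMP response element half-site (TGACG, here in reverse complement) in capitals. Nts lies at chr10:102490487-102490668 on the minus strand, with an AP-1 element (TGANTCA) and a reversed TGACG in capitals. Its 182 bases begin 250 before the RefSeq start and stop short of that start, where the annotated exon begins. Sst is shown as a short stretch at chr16:23890874-23890903 on the minus strand, with its cAMP response element (TGACGTCA), a textbook site of that promoter, in capitals.
Npy: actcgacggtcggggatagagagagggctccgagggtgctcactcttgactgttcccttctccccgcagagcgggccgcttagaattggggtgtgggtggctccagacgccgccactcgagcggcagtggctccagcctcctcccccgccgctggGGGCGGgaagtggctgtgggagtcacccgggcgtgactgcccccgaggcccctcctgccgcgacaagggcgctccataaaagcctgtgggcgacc
Cck: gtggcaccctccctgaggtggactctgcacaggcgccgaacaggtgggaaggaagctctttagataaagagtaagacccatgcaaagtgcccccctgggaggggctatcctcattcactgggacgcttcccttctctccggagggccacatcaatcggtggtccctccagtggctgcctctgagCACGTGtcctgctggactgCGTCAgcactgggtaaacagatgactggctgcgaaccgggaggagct
Nts: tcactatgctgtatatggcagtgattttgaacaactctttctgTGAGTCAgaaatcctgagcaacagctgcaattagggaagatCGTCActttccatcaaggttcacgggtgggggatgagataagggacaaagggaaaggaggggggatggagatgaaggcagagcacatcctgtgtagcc
Sst: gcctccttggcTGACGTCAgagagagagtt

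The motifs were chosen with these sequences in view and searched on both strands in the 250 bases before each start. TGACG lies inside TGACGTCA, so a match to the longer motif is also a match to the shorter. TGACG was found in 7 of the 9 member windows (both of Adcyap1, which overlap and hold the same match, and those of Cck, Nts, Sst, Tac1 and Vip), against 17.8% of 32851 mouse promoter windows. The full TGACGTCA was found for Sst alone among the 9 windows, against 1.55% of all windows. TGANTCA was found for Nts alone among them (6.75% of all windows), CACGTG for Cck and Tac1 (6.02%), GGGCGG for Gal, Npy and Tac1 (32.7%), and the TATA box TATAAA for 1 Adcyap1 window and Vip (12.4%). TGACCA, the motif known for the related factor BCL11A, was in none of the 9 windows and in 11.4% of all windows. Npy and Cck, which are described next and differed alike between the somata, shared none of the searched motifs. A match is a description of the letters and not of binding.

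Npy, the precursor of neuropeptide Y, a peptide that dampens transmitter release, was the most abundant member per exon length in all 4 groups. The gene (ENSMUSG00000029819.6) spans 49822710 to 49829507 on the plus strand of chromosome 6 in GRCm38, with 566 exonic bases. In WT somata 12, 14, 22, 25 and 26 it stood at 94.6, 85.2, 105, 145 and 97.4 CPM. In KO-labelled somata 14, 15, 22, 25 and 26 it stood at 493, 364, 473, 459.6 and 428 CPM. Every KO-labelled soma library lay above every WT soma library, and the edgeR log2 fold change was 2.06 ± 0.15 (SE). In growth cones 7 to 11 the WT libraries held 197, 251, 144, 139 and 87.0 CPM. The KO-labelled growth cones 7 to 11 held 260.3, 129, 188, 105 and 157 CPM. The growth cone groups overlapped over most of their range, with a log2 fold change of 0.07 ± 0.32 (SE; edgeR adjusted p = 0.9995).

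In WT, growth cones and somata overlapped and the log2 difference, growth cones minus somata, was 0.50 ± 0.28 (SE). In KO-labelled libraries the growth cones lay below all somata, with a log2 difference of -1.50 ± 0.24 (SE). The difference of the genotype effect between compartments was -1.997 ± 0.40 (SE) on the log2 scale. The compartment differences of Npy, and those of Cck below, rest on the soma values for which the genes were chosen, so they too are given without a test.

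Cck, the precursor of cholecystokinin, a peptide abundant in cortex, was low in WT somata, higher in KO-labelled somata and highest in growth cones. The gene (ENSMUSG00000032532.7) spans 121489824 to 121495694 on the minus strand of chromosome 9. The WT somata, in the order above, held 12.4, 9.47, 17.3, 23.96 and 16.1 CPM. The KO-labelled somata held 68.9, 67.1, 58.3, 61.6 and 67.7 CPM, a narrow range above all WT somata. The log2 fold change was 2.01 ± 0.23 (SE), close in size to that of Npy. The WT growth cones held 109.8, 158, 139.9, 112 and 144 CPM and the KO-labelled growth cones 78.3, 154, 135, 81.7 and 131 CPM. These overlapped, with a log2 fold change of -0.18 ± 0.22 (SE; edgeR adjusted p = 0.9995).

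Growth cones held more Cck than somata in each genotype, and the gap was smaller in the KO-labelled libraries. The log2 difference was 2.92 ± 0.28 (SE) in WT and 0.71 ± 0.20 (SE) in KO-labelled libraries, with no overlap of ranges in either. The difference of the genotype effect between compartments was -2.21 ± 0.34 (SE). Cck was the 1 member of 10 called there, in a fit that called 0.0283% of 17645 genes as lower, and nothing is read from this since earlier results of these data chose the gene.

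**Figure D1:**
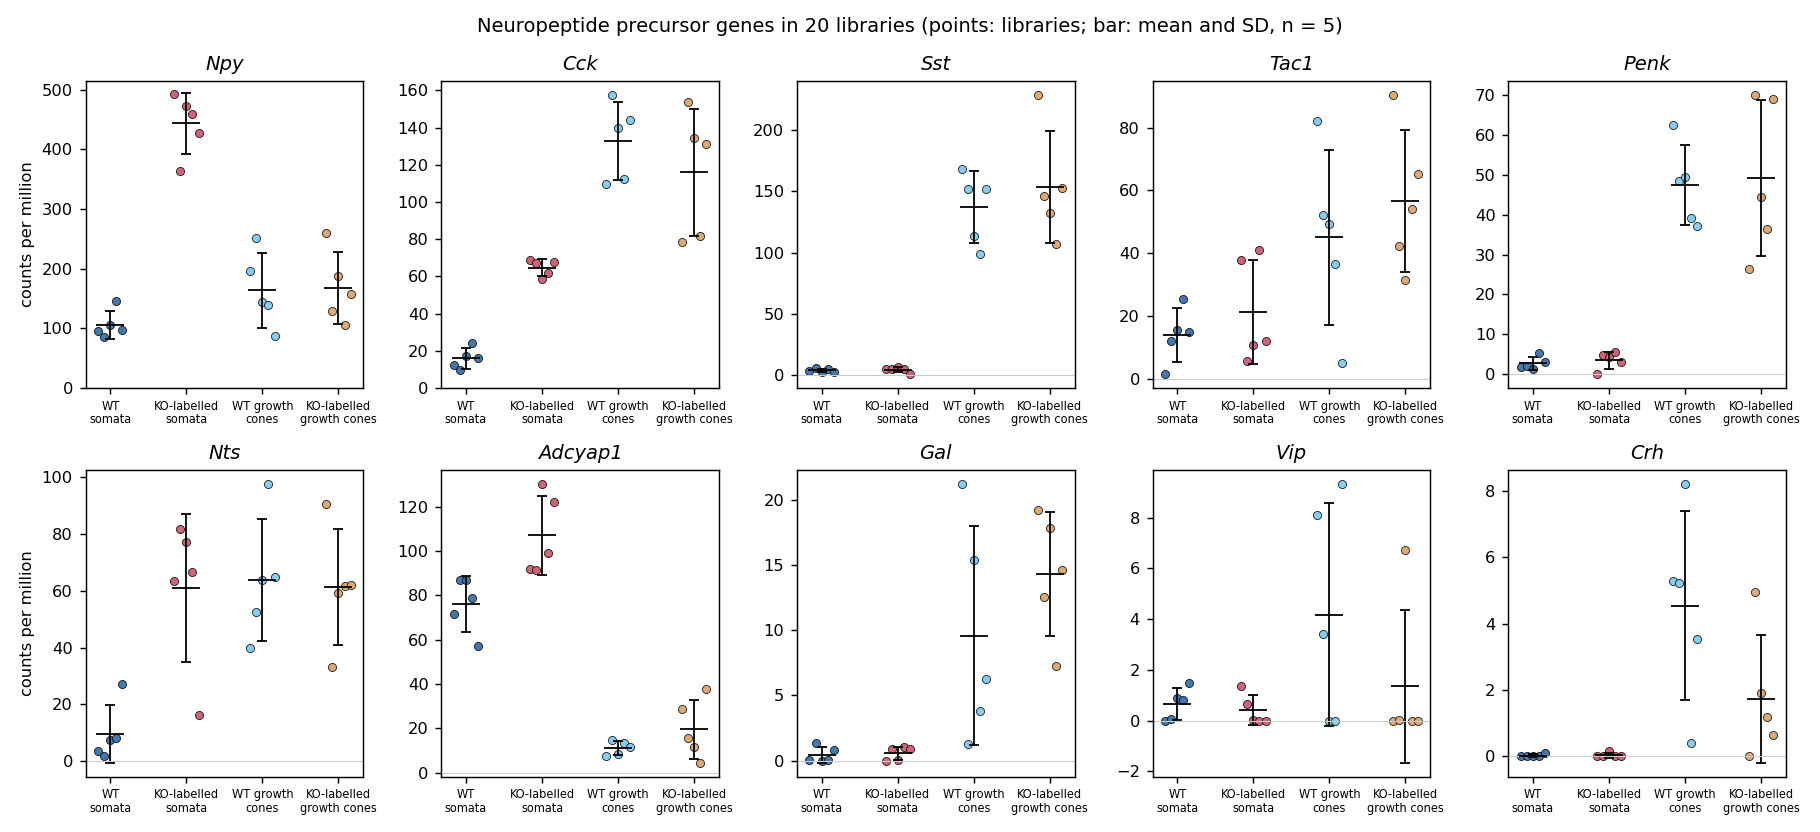
Level of each of the 10 precursor genes in the 20 libraries, in CPM (linear y axes, a separate scale for each gene), by group on the x axis. Points are libraries and bars the mean and SD (n = 5). Npy is highest in KO-labelled somata (364 to 493 CPM), Cck steps up from WT somata to KO-labelled somata to growth cones, Sst and Penk are high in growth cones of each genotype, and Adcyap1 is high in somata.

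Nts, the precursor of neurotensin and neuromedin N, was higher in 4 of the 5 KO-labelled somata than in any WT soma. The gene (ENSMUSG00000019890.4) spans 102481756 to 102490486 on the minus strand of chromosome 10. The WT somata 12, 14, 22, 25 and 26 held 3.44, 1.96, 7.48, 8.10 and 27.1 CPM. The KO-labelled somata 14, 15, 22, 25 and 26 held 63.3, 81.6, 77.4, 66.6 and 16.4 CPM. Experiment 26 went against the other 3 shared experiments: its WT library was the highest WT soma and its KO-labelled library the lowest KO-labelled soma, so the groups overlapped. The log2 fold change was 2.65 ± 0.66 (SE), and it was 3.51 without WT soma 26.

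In growth cones Nts did not separate by genotype. Its level in WT growth cones was 39.7, 52.6, 63.8, 97.7 and 64.9 CPM, and in KO-labelled growth cones 90.6, 33.1, 59.1, 61.5 and 62.1 CPM, for a log2 fold change of -0.02 ± 0.32 (SE; edgeR adjusted p = 0.9995). WT growth cones lay above all WT somata, by 2.56 ± 0.62 on the log2 scale (SE; edgeR adjusted p = 0.00571). KO-labelled growth cones and somata overlapped, with a log2 difference of -0.10 ± 0.40 (SE; edgeR adjusted p = 0.871) that took the other sign when libraries were scaled by their totals or by upper quartile.

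Tac1, the precursor of substance P and neurokinin A, was spread widely in every group. The gene (ENSMUSG00000061762.12) spans 7554879 to 7565834 on the plus strand of chromosome 6. Its level was 1.51, 11.9, 15.7, 25.5 and 14.8 CPM in the WT somata and 37.7, 5.59, 10.7, 40.9 and 11.9 CPM in the KO-labelled somata. In growth cones it was 82.1, 52.2, 49.2, 36.7 and 4.98 CPM in WT and 90.4, 42.2, 31.5, 54.1 and 65.2 CPM in KO-labelled libraries. All neighbouring groups overlapped, and WT growth cone 11 stood within the range of the somata. Neither compartment difference passed the threshold: 1.55 ± 0.72 (SE; edgeR adjusted p = 0.101) in WT and 1.34 ± 0.54 (SE; edgeR adjusted p = 0.0703) in KO-labelled libraries, on the log2 scale. The WT call was gained without WT growth cone 11 (adjusted p = 0.0304) and the KO-labelled call without KO-labelled soma 25 (adjusted p = 0.0384) or with upper quartile scaling (0.0414), and DESeq2 made both calls, where adjusted p over the alternatives ran from 0.0304 to 0.212 and from 0.0222 to 0.179. The genotype differences were 0.58 ± 0.66 (SE) in somata and 0.36 ± 0.56 (SE; edgeR adjusted p = 0.9995) in growth cones.

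Sst, the precursor of somatostatin, an inhibitory peptide and a marker of a large interneuron class, was low in somata and high in growth cones of each genotype. The gene (ENSMUSG00000004366.4) spans 23889573 to 23890958 on the minus strand of chromosome 16, and the 30 bases with the cAMP response element shown above lie inside that annotated span, since the RefSeq start is further downstream. Its level was 3.60, 5.50, 2.84, 5.35 and 2.53 CPM in the WT somata and 5.24, 4.94, 6.76, 5.01 and 0.965 CPM in the KO-labelled somata. In growth cones 7 to 11 it was 168, 152, 114, 98.9 and 152 CPM in WT and 229, 147, 133, 107 and 153 CPM in KO-labelled libraries. The lowest growth cone library lay far above the highest soma library. The log2 difference was 4.98 ± 0.31 (SE; edgeR adjusted p = 4.84e-07) in WT and 4.96 ± 0.48 (SE; edgeR adjusted p = 1.40e-05) in KO-labelled libraries. Genotype made no difference that passed the test in growth cones, at 0.19 ± 0.25 (SE; edgeR adjusted p = 0.9995), and the soma difference was 0.20 ± 0.51 (SE).

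Penk, the precursor of the enkephalins, which are opioid peptides, was likewise low in somata and high in growth cones. The gene (ENSMUSG00000045573.9) spans 4133531 to 4138819 on the minus strand of chromosome 4, and 233 exonic bases overlap A830012C17Rik on the opposite strand, which took 103 counts in all libraries together. Penk stood at 1.84, 1.99, 1.29, 5.44 and 3.16 CPM in the WT somata and at 0.103, 4.89, 4.32, 5.53 and 2.98 CPM in the KO-labelled somata. WT growth cones held 62.4, 48.4, 49.5, 39.2 and 37.2 CPM and KO-labelled growth cones 26.5, 69.9, 44.4, 36.4 and 68.9 CPM. All growth cones lay above all somata. The log2 difference was 3.97 ± 0.46 (SE; edgeR adjusted p = 3.45e-05) in WT and 3.63 ± 0.77 (SE; edgeR adjusted p = 0.00291) in KO-labelled libraries. The genotype difference was 0.07 ± 0.32 (SE; edgeR adjusted p = 0.9995) in growth cones and 0.37 ± 0.78 (SE) in somata.

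Adcyap1 and Vip encode related peptides, PACAP and VIP, that share a pair of receptors. Adcyap1 (ENSMUSG00000024256.7, plus strand of chromosome 17, 93199017 to 93206537) was the member that was higher in somata in each genotype. It stood at 71.5, 86.9, 87.0, 78.6 and 56.9 CPM in the WT somata and at 91.9, 91.5, 130.3, 99.2 and 122 CPM in the KO-labelled somata. The soma ranges did not overlap, with a log2 fold change of 0.48 ± 0.16 (SE). WT growth cones held 7.496, 14.8, 8.35, 13.5 and 11.7 CPM and KO-labelled growth cones 28.6, 15.6, 11.5, 4.49 and 37.6 CPM, and the genotypes overlapped at a log2 fold change of 0.85 ± 0.61 (SE; edgeR adjusted p = 0.9995). The log2 difference between compartments, growth cones minus somata, was -2.91 ± 0.27 (SE; edgeR adjusted p = 7.38e-06) in WT and -2.55 ± 0.49 (SE; edgeR adjusted p = 0.00161) in KO-labelled libraries.

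Vip (ENSMUSG00000019772.5, plus strand of chromosome 10, 5639218 to 5647617) had few or no counts in many libraries. It was between 0 and 1.48 CPM in the WT somata and between 0 and 1.36 CPM in the KO-labelled somata. WT growth cones 7, 8 and 11 held 8.09, 3.43 and 9.34 CPM while 9 and 10 held no count. Among KO-labelled growth cones, 9 held 6.75 CPM and the others 0 to 0.0412 CPM. The gene passed the low-count filter in the WT compartment comparison, where the log2 difference was 2.55 ± 1.73 (SE; edgeR adjusted p = 0.260), and not in the KO-labelled one or between growth cone genotypes.

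Gal, the precursor of galanin, was low in somata and variable in growth cones. The gene (ENSMUSG00000024907.7) spans 3409915 to 3414544 on the minus strand of chromosome 19. No soma library exceeded 1.32 CPM in WT or 1.03 CPM in KO-labelled somata. WT growth cones held 21.3, 1.24, 15.4, 3.83 and 6.27 CPM and KO-labelled growth cones 19.3, 12.6, 17.9, 7.24 and 14.6 CPM. WT growth cone 8 lay within the soma range, and the KO-labelled growth cones all lay above the somata. The log2 difference was 4.35 ± 1.43 (SE) in WT and 4.53 ± 1.17 (SE) in KO-labelled libraries. Gal passed the low-count filter in these comparisons only through the growth cones, so its calls are a description and not a test. The WT call was lost without WT growth cone 7, without WT growth cone 9 or without WT soma 25.

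Crh, the precursor of corticotropin-releasing hormone, a stress peptide also made by some interneurons and brainstem neurons, was nearly absent from the soma counts. The gene (ENSMUSG00000049796.4) spans 19693401 to 19695396 on the minus strand of chromosome 3. WT soma 26 held 2 counts and KO-labelled soma 22 held 9 counts, and the other 8 soma libraries held none. WT growth cones held 5.28, 5.21, 8.21, 0.417 and 3.55 CPM and KO-labelled growth cones 0, 4.95, 1.91, 1.19 and 0.646 CPM. Against a floor of 3 counts per soma library, the WT growth cone mean of 4.53 CPM was at least 44.8-fold higher. Such floors cover counting error only, and amplified reads without molecular identifiers are not independent molecules. Crh passed the low-count filter there only through the growth cones, which fixed the direction, so no test is given. The KO-labelled compartment comparison and the soma comparison did not test the gene, and the growth cone genotype difference was -1.41 ± 1.21 on the log2 scale (SE; edgeR adjusted p = 0.9995).

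**Figure D2:**
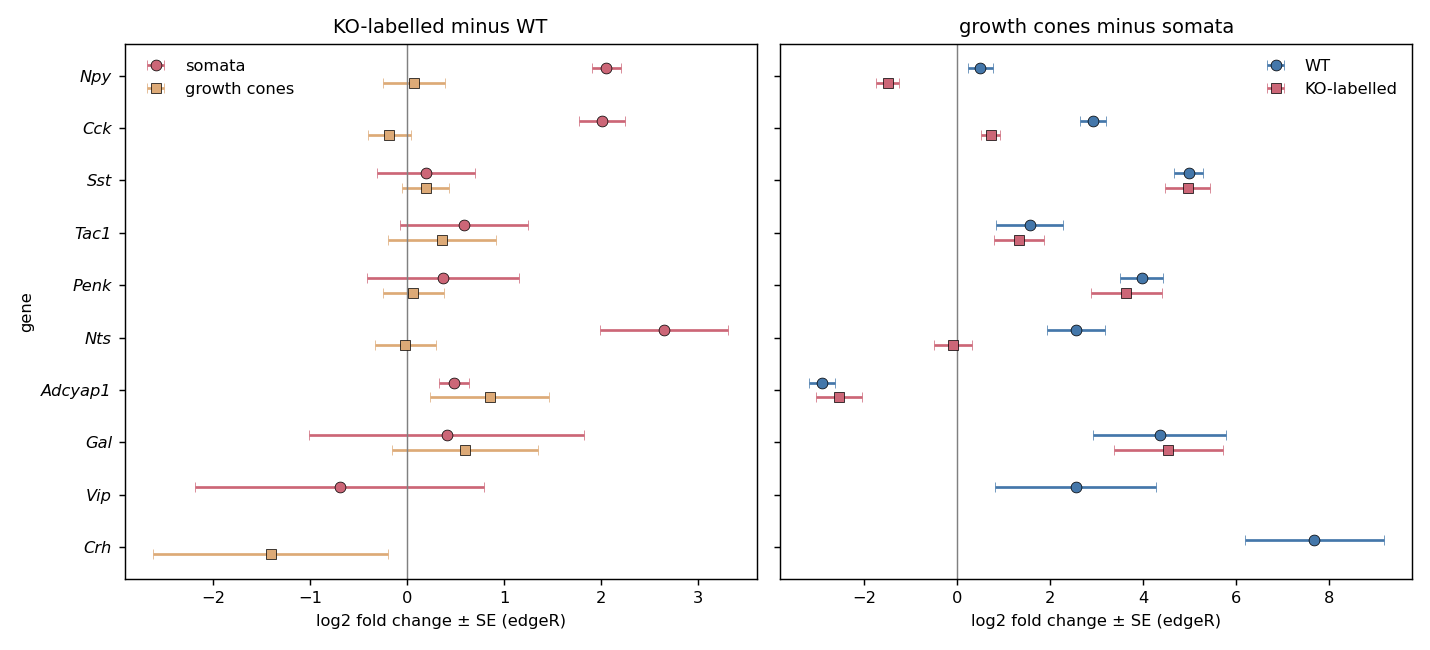
Log2 fold changes with SE from edgeR for the 10 genes (y axis), for KO-labelled minus WT in somata and growth cones (left x axis) and for growth cones minus somata in WT and KO-labelled libraries (right x axis); a gene not tested has no point. Npy, Cck and Nts lie near or above 2 on the left in somata and near 0 in growth cones, while on the right Sst and Penk lie near the same value in each genotype. The point for Crh on the right depends on near-empty soma libraries and is not a bound.

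Counted together, 2 of the 9 members tested between soma genotypes were called at a false discovery rate of 0.05 and both were higher, in a comparison that called 0.416% of 14911 genes as higher. The members were chosen with this comparison known, so their count is not read against that share. With the experiment number fitted as a block 1 member was called, Cck being lost, and DESeq2 called 3. The median log2 fold change of the 9 was 0.48 and that of all genes tested was -0.003. The somata also differed in ways that run alongside: the KO-labelled somata were sequenced more deeply, and a list of 8 markers of excitatory cortical neurons summed to 1649 to 1872 CPM there and to 1201 to 1466 CPM in WT somata, a log2 difference of 0.37 (exact permutation test, two-sided, p = 0.00794, adjusted p = 0.0176 over 20 list comparisons). A list of 24 interneuron markers, none of them a member, summed to 91.5 to 211 CPM in WT somata and 75.5 to 198 CPM in KO-labelled somata (log2 difference -0.30, exact permutation test, two-sided, p = 0.357, adjusted p = 0.510). The lists were chosen with earlier results of these data known, so the list sums and their p-values are a description. A p of 0.00794 is the smallest that the permutation test can give at these group sizes. The part of depth and of these markers in the soma difference was not tested.

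Between growth cone genotypes edgeR called none of the 9 members tested, as it called 0% of 15419 genes. No member had an unadjusted p under 0.05 there (0 of 9), DESeq2 called 0 members, and the median log2 fold change of the 9 was 0.07 against 0.01 for all genes. Between WT compartments, 6 of 10 members were higher in growth cones and 1 was lower, where 23.1% and 19.7% of 15128 genes were called higher and lower. Crh and Gal in WT, and Gal and Penk in KO-labelled libraries, passed the low-count filter only through the growth cones. Npy and Cck were chosen on soma values, so the members' counts between compartments are a description in each genotype. Their median log2 difference was 2.74, also with Crh set at its bound, against 0.07 for all genes. Between KO-labelled compartments, 4 of 8 members tested were higher and 2 lower, where 21.4% and 17.3% of 15410 genes were called, and the median was 1.03 against 0.09. Upper quartile scaling moved the median of all genes to 0.28 in WT and 0.31 in KO-labelled libraries, and the members' counts stayed the same to within 1 gene.

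Per kilobase of exon, which allows genes to be compared, Npy stood at 186 ± 41.2 (SD, n = 5) CPM per kilobase in WT somata and 784 ± 89.3 (SD, n = 5) in KO-labelled somata. It made up 78.2% and 84.6% of the members' sum there, and 41.6% and 41.2% in WT and KO-labelled growth cones. In WT somata the next were Adcyap1, Cck and Nts, at 20.2, 12.1 and 7.71 CPM per kilobase, each overlapping its neighbour. In KO-labelled somata Cck (49.6) lay above Adcyap1 (28.3) in every library, and Nts (48.9) overlapped both. In growth cones Sst came second, with 190.0 ± 40.6 (SD, n = 5) CPM per kilobase in WT and 213 ± 63.2 (SD, n = 5) in KO-labelled libraries, a range that overlapped Npy and lay above Cck in each genotype. Nts followed Cck, and Penk followed Nts with overlapping ranges. The summed CPM of the 10 genes was 229 ± 40.2 (SD, n = 5) in WT somata, 707 ± 66.2 (SD, n = 5) in KO-labelled somata, 619 ± 96.8 (SD, n = 5) in WT growth cones and 641 ± 132 (SD, n = 5) in KO-labelled growth cones.

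**Figure D3:**
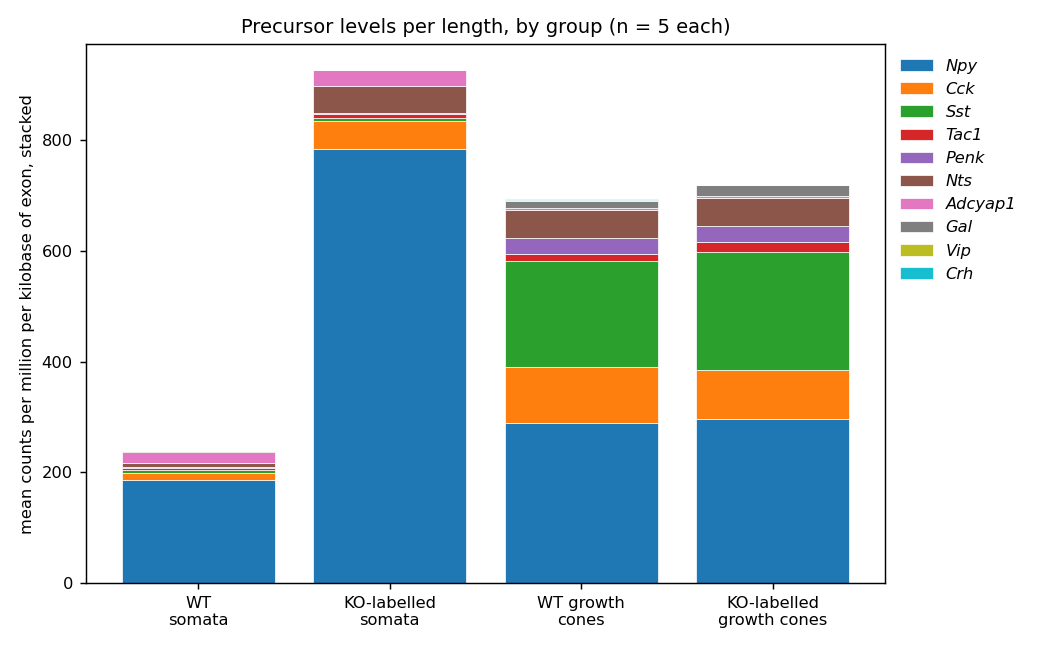
Mean level per kilobase of exon of the 10 precursor genes, stacked by group (y axis from 0; mean of 5 libraries a group, without error bars). Npy makes up 78.2% and 84.6% of the stack in WT and KO-labelled somata and 41.6% and 41.2% in WT and KO-labelled growth cones, where Sst is the second largest segment.

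Markers of other cells were also higher in growth cones than in somata. The 24 interneuron markers, such as Gad1, which makes GABA, ran in sum from 907 to 1304 CPM in growth cones of WT and from 959 to 1096 CPM in those labelled KO, above every soma library (exact permutation test, two-sided, p = 0.00794, adjusted p = 0.0176 in each genotype). That p is the smallest the permutation test can give at these group sizes. The list was chosen with earlier results of these data known, so its sums are a description. Of 22 markers tested in each genotype, 19 were higher in WT growth cones and 18 in KO-labelled growth cones. Over all genes, 23.1% of 15128 and 21.4% of 15410 were called higher there. No interneuron marker was at 0 in all libraries of a group. Markers that passed the filter only through the growth cones had to differ in that direction. Gad1 stood at 4.01 CPM in WT somata and 158 CPM in WT growth cones (log2 difference 5.12 ± 0.75, SE; edgeR adjusted p = 0.000189), and at 5.33 and 112 CPM in KO-labelled libraries (4.28 ± 0.47, SE; edgeR adjusted p = 3.63e-05). A list of 20 hindbrain and spinal cord genes, mostly Hox genes, which mark position along the body axis, summed to 142 to 258 CPM in growth cones of WT and 97.3 to 284 CPM in those labelled KO, and to at most 0.403 CPM in a soma library. In somata 7 of the 20 were at 0 in all WT libraries and 13 in all KO-labelled libraries. Hoxb5 was at least 356-fold higher in WT growth cones and at least 450-fold higher in KO-labelled growth cones, against 3 counts per soma library.

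Markers of glia and vessels moved in the same direction. The summed astrocyte list ran from 36.9 to 366 CPM over the somata and from 1920 to 2673 CPM over the growth cones, the oligodendrocyte list from 63.9 to 121 CPM and from 589 to 2385 CPM, and the list of vessel, blood and choroid plexus genes from 0.426 to 66.2 CPM and from 634 to 1035 CPM. The microglia list overlapped, at 3.29 to 92.7 CPM and 18.3 to 125 CPM. No gene of the astrocyte, oligodendrocyte or microglia lists was at 0 in all libraries of a group. The part of other cell types in the growth cone levels of Sst, Penk, Cck, Nts, Gal and Crh was not tested.

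**Figure D4:**
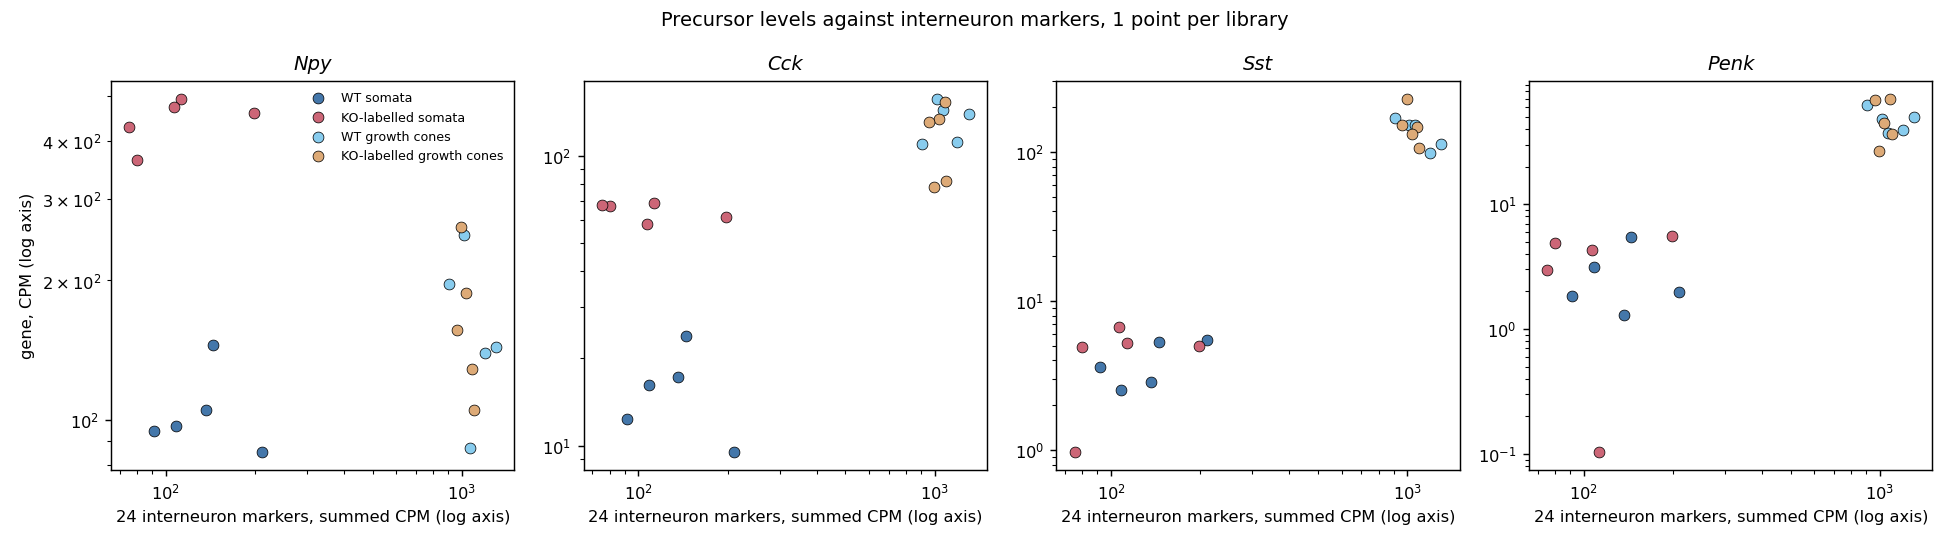
Levels of Npy, Cck, Sst and Penk (y axes, CPM, log scale) against the summed level of 24 interneuron markers (x axes, CPM, log scale), 1 point per library, coloured by group. Cck, Sst and Penk are highest in the growth cones, where the markers sum to 907 to 1304 CPM. The Npy and Cck levels of KO-labelled somata lie above those of WT somata, at marker sums of 75.5 to 211 CPM. The part of interneurons in these levels was not tested.

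Genes that handle the precursors were followed in a list of their own. Of 16 genes of peptide processing and dense-core vesicles, 15 were tested between soma genotypes and 1 was called, where 109 of 14911 genes were called: Pcsk2, the prohormone convertase PC2, which cuts several of these precursors, stood at 72.3 CPM in WT somata and 219 CPM in KO-labelled somata (log2 fold change 1.59 ± 0.15, SE) and was higher in the latter. It was not called when all 20 libraries were fitted together. Between WT compartments 2 of 16 were higher in growth cones and 4 lower, where 23.1% and 19.7% of 15128 genes were called. Between KO-labelled compartments 2 of 15 were higher and 3 lower, where 21.4% and 17.3% of 15410 genes were called. Pcsk1n, an inhibitor of the convertase PC1, was higher in growth cones by 2.15 ± 0.28 (SE; edgeR adjusted p = 8.49e-05) in WT and by 1.99 ± 0.19 (SE; edgeR adjusted p = 1.07e-05) in KO-labelled libraries. Cpe, the carboxypeptidase that trims the cut peptides, was lower by a log2 difference of -0.73 ± 0.12 (SE; edgeR adjusted p = 0.000475) in WT and -0.79 ± 0.13 (SE; edgeR adjusted p = 0.000449) in KO-labelled libraries. Pcsk2 was lower in growth cones in each genotype. The log2 difference was -0.998 ± 0.36 (SE) in WT, where the ranges overlapped, and -2.08 ± 0.30 (SE) in KO-labelled libraries. The soma values for which Pcsk2 was named enter both differences, so they are given without a test.

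Of 30 receptors for these peptides, 14 were tested between soma genotypes and 1 was lower, where 47 of 14911 genes were called lower. This was Sstr1, a somatostatin receptor, at 35.6 CPM in WT somata and 8.08 CPM in KO-labelled somata (log2 fold change -2.15 ± 0.30, SE). Sstr1 was not called when all 20 libraries were fitted together. Between compartments 1 receptor was higher and 3 were lower of 15 tested in WT, and 1 was higher and 1 lower of 14 tested in KO-labelled libraries. Over all genes, 23.1% were called higher and 19.7% lower in WT, and 21.4% and 17.3% in KO-labelled libraries. Npy1r, the Y1 receptor for NPY, was lower in growth cones by a log2 difference of -2.83 ± 0.44 (SE; edgeR adjusted p = 0.000300) in WT, at 92.7 CPM in somata and 14.3 CPM in growth cones. In KO-labelled libraries it was lower by -2.10 ± 0.72 (SE; edgeR adjusted p = 0.0365), a call lost in 7 of the 10 fits without 1 library and with upper quartile scaling (adjusted p = 0.0588). In somata Npy1r differed by 0.24 ± 0.18 (SE) between genotypes and was not called.

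A wider list held 43 other peptide precursors, of which 15 passed the low-count filter in each genotype. Of these, 12 were higher in WT growth cones and 11 in KO-labelled growth cones and none was lower, beside the 23.1% and 21.4% of all genes called higher. Several were near 0 in somata and passed the filter only through the growth cones, so this count is in part fixed by the filter. Grp, the precursor of gastrin-releasing peptide, was higher by 3.31 ± 0.57 (SE; edgeR adjusted p = 0.000596) in WT and 2.08 ± 0.40 (SE; edgeR adjusted p = 0.00164) in KO-labelled libraries. Pomc, the precursor of beta-endorphin and melanocortins, was higher by 4.16 ± 1.07 (SE; edgeR adjusted p = 0.00774) and 5.13 ± 0.57 (SE; edgeR adjusted p = 3.58e-05). Between genotypes edgeR called 0 of 10 tested in somata, where 1 had an unadjusted p under 0.05 and DESeq2 called 1, and 0 of 21 tested in growth cones, where 0 had an unadjusted p under 0.05 and DESeq2 called 0. Over all genes, edgeR called 109 of 14911 in somata and 0 of 15419 in growth cones.

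Likeness to other genes was measured as Pearson's r of log2 levels over the 20 libraries, among genes averaging 5 CPM or more, and is given as a description, since the libraries share the compartment difference. The genes most like Npy were Csrp2 (r = 0.770), Igfbp2 (0.750) and Zfp804a (0.730), and over the 10 soma libraries alone they were Cck (0.981), Pcsk2 (0.978) and Zfp804a (0.970). Those 10 libraries fall into the genotype groups, which separated all of these genes. The closest genes were Chst2 for Cck (0.907), Cox17 for Sst (0.987), Tnc for Tac1 (0.849), Gpx8 for Penk (0.960), Crtac1 for Nts (0.829), Cct3 for Adcyap1 (0.969) and Agap2 for Gal (0.936). Cck was itself the third closest gene to Nts, at 0.806.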

How the data were processed

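Read counts per gene were deposited by the authors as whole-number counts from featureCounts 1.5.0 after Trimmomatic 0.39 and STAR 2.7.1a, per the submitters' processing notes, which name the build GRCm39. The coordinates in the deposited table belong to another build: the exons of 54693 of 55487 genes (98.6%) match GENCODE M21 (GRCm38) exactly, so positions are given in GRCm38. Strand use and multi-mapping are not given in the sources used here. Exon lengths, a unit other than a count, were deposited by the authors in the same table. Symbols were matched for 55141 genes.

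Counts were scaled by TMM and tested with edgeR 4.0.16 (R 4.3.3), quasi-likelihood, after filterByExpr (minimum count 10), with p-values adjusted by Benjamini-Hochberg over all genes tested and a threshold of 0.05. Each of the 4 comparisons used its own 2 groups, and the difference of genotype effects used all 20 libraries. CPM levels use library totals, without TMM. Marker list sums, log2(sum CPM + 1), were compared by exact permutation in Python 3.11.15 with scipy 1.17.1. Likeness used log2(TMM CPM + 0.5). The fits were tested on simulated data. Alternatives were DESeq2 1.42.0 (limma 3.58.1 was loaded with edgeR), other scalings, no filter, 1 fit of all libraries, the experiment number as a block and leaving out each library.

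All members are described. Other genes named are Bcl11b, list genes past the threshold by lowest p, up to 6 a list and comparison, and the 3 most alike per member. The members and the lists were chosen with earlier results of these data known. No libraries of a group agreed within counting noise, so none were merged. RNA inputs, not analysed here, were smaller for some growth cones.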

Additional observations from a re-analysis of the deposited data

Results flagged for a closer look

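In 40 tests of 5 libraries each (10 genes in 4 groups), 5 libraries stood far from the rest of their group, measured as the gap to the nearest library over the whole range. Chance gives about 1 in 20. Nts stood at 27.1 CPM in WT soma 26, above the other WT somata, and at 16.4 CPM in KO-labelled soma 26, below the other KO-labelled somata. Vip stood at 6.75 CPM in KO-labelled growth cone 9, the other 4 being at or below 0.0412 CPM. Crh stood at 0.105 CPM in WT soma 26, from 2 counts, and at 0.176 CPM in KO-labelled soma 22, the other soma libraries of those groups being at 0. With 4 of 5 libraries at 0 any count is marked in this way, so the Crh entries say nothing of these libraries. The genotype effect on Cck was called as different between growth cones and somata, by -2.21 on the log2 scale in the edgeR fit of all 20 libraries. The gene was chosen on soma values that enter this difference, and the replicate block ended the call, so it stands as a description.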

How the results depend on the processing

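Every member's call between growth cone genotypes was the same under all alternatives run. Of the 2 members called between soma genotypes, with the experiment number as a block 1 was called, Cck being lost, and the block turned Sst to -0.09 and Penk to -0.378 there. For the difference of genotype effects, the main count of 1 member became 3 with DESeq2, 2 with library totals and 0 with the replicate block, where Sst, Tac1 and Penk turned to 0.22, 0.19 and 0.35, and it was 1 to 2 when single libraries were left out. The Nts difference between KO-labelled compartments turned to 0.00456 with library totals and 0.13 with upper quartile. The cause of these changes was not tested. The block changed no other member's call, and it ended the soma call of Sstr1 (adjusted p = 0.0611). Experiment numbers are shared by 4 soma and 5 growth cone pairs, but the labels do not say that a number marks a shared batch, and deviations of same-numbered libraries correlated at 0.0102 to 0.134 in somata and 0.0268 to 0.106 in growth cones. The WT library was most alike to its own number in 3 of 4 and 4 of 5 pairs. No paired analysis was possible because the compartments share no numbers for the comparisons of growth cones with somata. Over all genes, the soma comparison called 109 genes with edgeR, 393 with DESeq2, 30 in 1 fit of all libraries and 34 with the block. The difference of effects called 7 genes, 262 with DESeq2 and 0 with the block. The growth cone comparison called 0, with 329 at an unadjusted p under 0.05, 11 with DESeq2 and 7 in 1 fit of all libraries.

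Leaving out each library in turn gave these log2 ranges for results that changed sign or call, beside the changed calls of Gal, Tac1 and Npy1r given above. Between growth cone genotypes they were -0.18 to 0.28 for Npy, -0.0283 to 0.31 for Sst, -0.10 to 0.21 for Penk and -0.23 to 0.18 for Nts. Nts ran from -0.36 to 0.0993 between KO-labelled compartments. Between soma genotypes it ran from 2.38 to 3.51 and was called in 1 of 10 fits, which is a description. For the difference of effects the ranges were -0.29 to 0.19 for Sst, -0.57 to 0.16 for Tac1, -0.0445 to 0.62 for Adcyap1, -0.91 to 0.68 for Gal, -7.53 to 0.20 for Vip and -4.89 to 1.02 for Crh. That of Npy ran from -2.26 to -1.80 and was called in 2 of 20 fits, likewise a description. Marker sums between growth cone genotypes ran from -0.0888 to 0.29 for hindbrain and spinal genes, -0.62 to 0.10 for monoamine and sensory genes, -0.0205 to 0.23 for excitatory cortical genes and -0.17 to -0.0317 for subcerebral genes, whose call was gained without KO-labelled growth cone 11. The hindbrain sum between somata ran from -0.22 to -0.12, gaining a call without WT soma 26. The excitatory cortical sum between WT compartments ran from -0.48 to -0.33, losing its call without WT soma 12, 14, 22 or 25. Counts limit Vip, Gal and Crh in somata, where most libraries held fewer counts than the other members.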
